A study of Mus musculus with 4 samples.

Results

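The 40 genes described here carry glucose into the cell, split it to pyruvate by glycolysis, and decide what becomes of the pyruvate. They were taken from a list of isozymes and single enzymes by symbol, with a minimum of 15 counts summed over 4 libraries. All 40 listed genes were found among the 23420 entries of the deposited count table, and all 40 also passed the filter on low counts, as did 14649 genes in all. The member nearest the minimum was Hkdc1, with 40 counts. RNA came from sorted mouse pancreatic β-cells that survived an ablation. The 2 libraries labelled Bmal1KO came from Bmal1KO/DTA mice and the 2 labelled Bmal1+/- from Bmal1+/-DTA mice, so both groups carried DTA, the diphtheria toxin A chain that kills the cells expressing it. Both groups had also received doxycycline for 10 days, and the controls lacked 1 Bmal1 allele by their label. No group without ablation is compared here. The sources used here do not give the promoter behind DTA, the Cre driver or the age of the mice. The labels also do not say whether replicate libraries stem from different mice, so a p-value reflects only how far these libraries scatter, and that scatter may be technical.

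The enzymes of this pathway come in sets of isozymes whose kinetics differ. Mature mouse β-cells take up glucose mainly through GLUT2 (Slc2a2), a transporter of low affinity and high capacity. Hexokinases with high affinity and lactate dehydrogenase A are normally held low in these cells, and pyruvate goes mainly to mitochondria through pyruvate dehydrogenase and pyruvate carboxylase.

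The targeted gene comes first. Arntl, which encodes BMAL1, had 2490 and 2101 counts where the label is KO and 892 and 495 where it is heterozygous. Its RNA was therefore higher in both libraries labelled KO (log2 fold change 1.89, SE 0.24, edgeR adjusted p = 0.0175). The KO label thus did not show as lower Arntl RNA. Counts over a whole gene do not show whether a deleted part is missing, and so each group goes by its label below. Depth was similar, at 31056116 to 38020488 counts per library. The levels of Ins1, Ins2 and 8 other β-cell markers summed to 218250 to 277390 CPM (counts relative to library size, corrected by TMM for RNA composition). Most of this was Ins2, at 151720 to 194550 CPM, with Ins1 and Iapp. The other markers were far lower, from 45.5 CPM for Mafa in KO replicate 1 to 2103 CPM for G6pc2 in heterozygous replicate 2. Of these 10 markers Slc30a8, G6pc2, Ucn3 and Pcsk1 passed as lower under the KO label and 0 as higher. Acinar markers summed to 227 and 106 CPM under the KO label (replicates 1 and 2, an order kept below) and to 77.3 and 25.8 CPM under the heterozygous label. Of the 13 tested, 0 passed by edgeR or limma-voom, 4 passed by DESeq2 and 5 had an unadjusted p under 0.05. Stromal markers summed to 173 and 443 against 72.6 and 31.5 CPM, and 5 of the 9 tested passed as higher by edgeR (1 by limma-voom). Among them Pdgfra had 37 and 170 counts against 0 in both libraries labelled heterozygous. Immune markers summed to 290 and 1000 against 316 and 371 CPM, with 0 of 8 tested passing by edgeR or limma-voom, 2 by DESeq2 and 3 at an unadjusted p under 0.05. Amy2b, Rbpjl, Pdgfrb and Cd3e were at 0 counts in heterozygous replicate 2, and Thy1 in every library but KO replicate 1. Some RNA of other islet cells differed as well. Ppy, the hormone of PP cells, was at 1974 and 4008 against 1319 and 1046 CPM (edgeR adjusted p = 0.0850; called by DESeq2). Of 7 α-cell markers Irx2 rose (log2 2.64, adjusted p = 0.0230) and Gc fell (log2 -0.92, adjusted p = 0.0286), while Gcg, the glucagon gene, was at 1630 and 3303 against 1340 and 1283 CPM (adjusted p = 0.183). Of 5 tested markers of glia and neurons Tubb3 alone rose (log2 0.99, adjusted p = 0.0439). Duct markers summed to 569 and 548 against 742 and 818 CPM, with 0 of 6 tested passing by edgeR, 1 by limma-voom and 2 by DESeq2. Markers of δ-cells summed to 614 and 1521 against 1026 and 1114 CPM, with 0 of 3 tested passing. Summed acinar and stromal markers and Ppy were thus higher in both libraries labelled KO and summed duct markers lower. Immune and δ-cell sums overlapped between labels. The part of these cells in the results below was not tested.

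At 5 points of the pathway a gene rose in the libraries labelled KO: the isomerase Gpi1, the phosphofructokinase Pfkp, its activator enzyme Pfkfb3, the bisphosphatase Fbp2 and the pyruvate dehydrogenase kinase Pdk1. In the edgeR quasi-likelihood fit, with Benjamini-Hochberg adjusted p under 0.05 over all genes, 5 of the 40 members were higher, 0 were lower and 35 did not pass. Over all 14649 genes tested, 1.2% were called higher and 1.34% lower, or 2.54% in either direction. None of the members with a lower level had an unadjusted p under 0.05 in this test. By level alone, 28 members were higher and 12 lower, and the median log2 fold change was 0.14, beside 0.02 for all genes. For 18 members both libraries labelled KO lay above both labelled heterozygous, and for 5 both lay below. The same held for 25.3% and 23.8% of all genes tested, 49.0% in either direction. In bulk samples fewer cells of a type and less RNA per cell cannot be told apart, which applies to each value here.

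**Figure D1:**
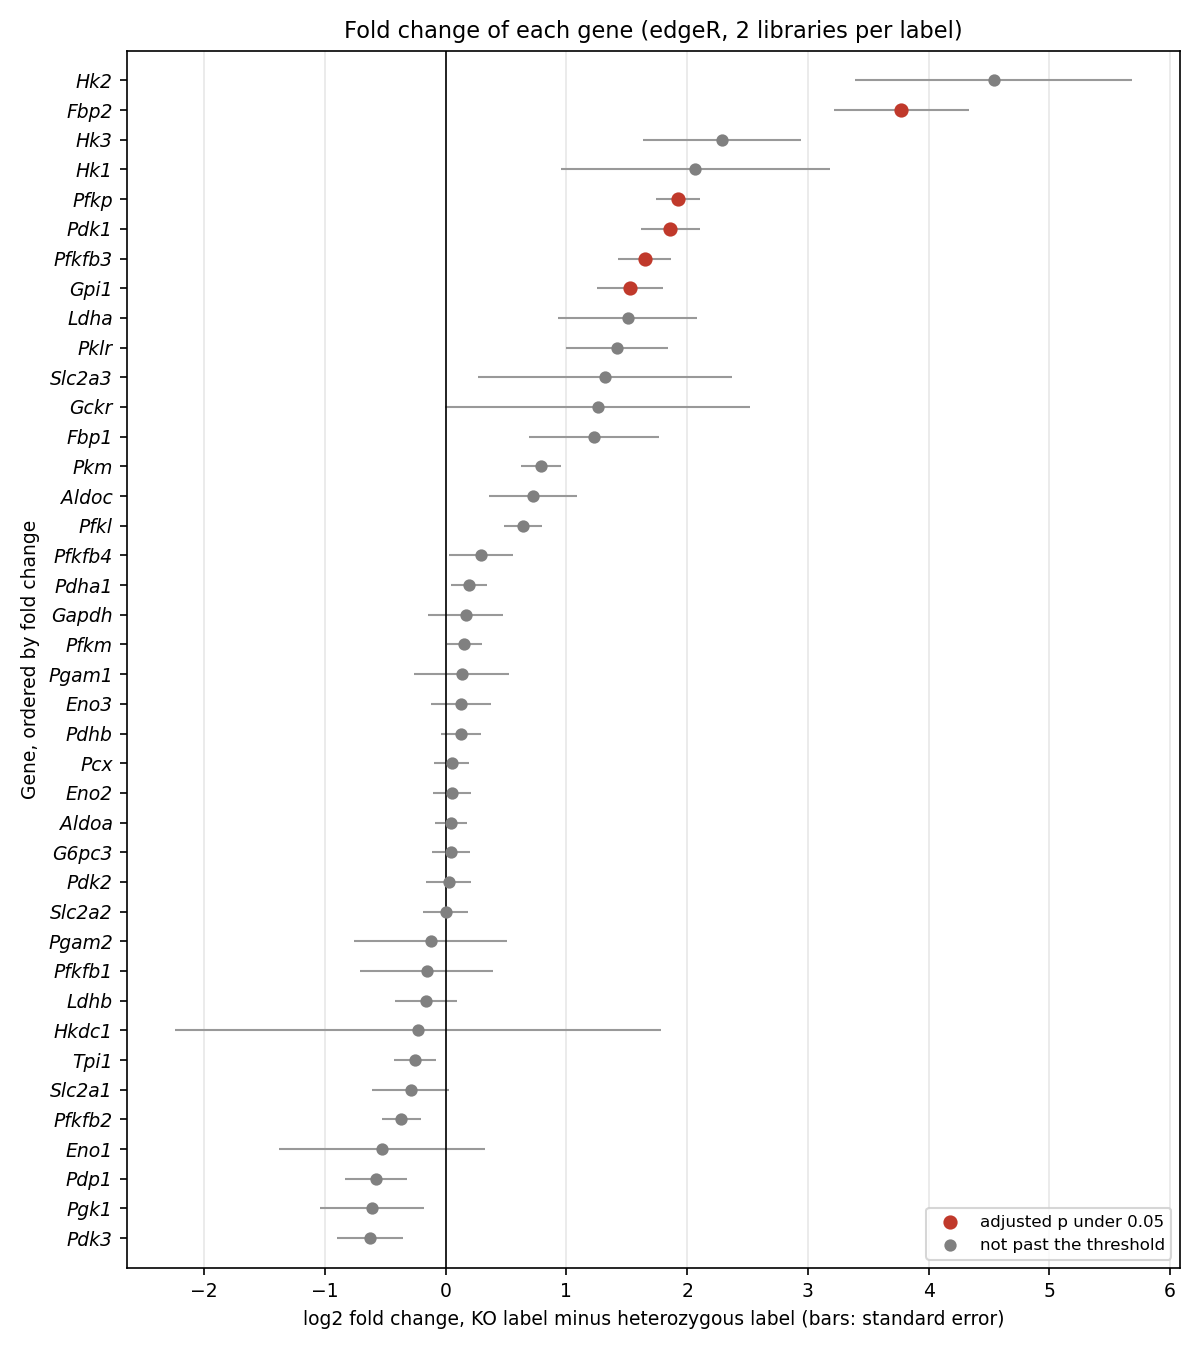
Log2 fold change of each of the 40 genes, KO label minus heterozygous label, with the standard error as a bar (edgeR, 2 libraries per label). The 5 red points passed the threshold, all on the higher side, and Hk2 has the largest estimate (4.54) with an adjusted p of 0.102.

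The main glucose transporter was nearly level. Slc2a2, which encodes GLUT2, was at 229 and 182 CPM against 231 and 180 CPM, with the KO label given before the heterozygous label here and below. The groups overlapped fully, with a log2 fold change of -0.00075 (SE 0.18). Per kilobase of transcript, Slc2a2 made up 89.3% to 94.5% of the RNA of the 3 transporter genes in each library. Slc2a1 (GLUT1), the transporter of many other tissues, took 4.79% to 7.64%, and its log2 fold change was -0.29 (SE 0.32). Slc2a3 (GLUT3), known from neurons and leukocytes, varied from 0.24 CPM in heterozygous replicate 2 to 4.59 CPM in KO replicate 2. Its groups overlapped (log2 fold change 1.32, SE 1.05).

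The high-affinity hexokinases, which phosphorylate glucose, were rare. Hk1 had 105 and 114 counts against 3 and 51. Hk3, a form known from leukocytes, had 101 and 100 counts against 30 and 16 (log2 fold change 2.29, SE 0.65, edgeR adjusted p = 0.139). Hk2 had 22 and 67 counts against 2 and 2. All 3 lay higher in both libraries labelled KO, and none passed the test. Summed over each label, the Hk2 counts of 89 and 4 give a ratio of 24.6 at equal depth, with an exact 95% binomial interval of 9.28 to 92.3 that covers counting error in these libraries only. The edgeR adjusted p of Hk2 was 0.102. Hkdc1, a hexokinase-like gene, had 18 counts in KO replicate 2 and 22 in heterozygous replicate 2. In both replicates numbered 1 it had 0 counts, which allows up to 0.0913 CPM in the library labelled KO and 0.0775 CPM in the other. Gckr, which encodes a regulatory protein known from liver, ranged from 5 to 52 counts with overlapping groups.

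Gpi1, which turns glucose 6-phosphate into fructose 6-phosphate, rose. Its levels were 396 and 219 CPM against 116 and 96.9 CPM. Both libraries labelled KO were above both others, by a fold of 2.88 between the groups (log2 1.53, SE 0.28, edgeR adjusted p = 0.0401). KO replicate 1 stood well above KO replicate 2. The gene lies on chromosome 7, 34201330 to 34230336, minus strand (GRCm38). Of the 50-base windows of its transcript, 25.3% occur again in transcripts of 122 other genes. The part of this in its level was not tested.

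Among phosphofructokinases, which commit sugar to glycolysis, the platelet form moved and the muscle form did not pass. Pfkp (chromosome 13, 6579768 to 6648777, minus strand) was at 103 and 109 CPM against 31.6 and 24.3 CPM. The replicates of each label were close and the groups far apart, at 3.79-fold (log2 1.92, SE 0.18, edgeR adjusted p = 0.0116), the smallest adjusted p of the 40 genes. Pfkl, the liver form, was at 156 and 127 CPM against 91.8 and 89.8 CPM without overlap (log2 0.64, SE 0.16, adjusted p = 0.0958). Pfkm, the muscle form, was at 89.0 and 84.7 CPM against 81.9 and 74.0 CPM (log2 0.16, SE 0.15, adjusted p = 0.659). The make-up of the step differed accordingly. Per kilobase, Pfkp held 25.5% and 29.2% of phosphofructokinase RNA under the KO label and 12.6% and 10.5% under the heterozygous label. The share of Pfkm was 31.6% and 32.8% against 46.9% and 46.2%. Pfkl held 37.98% to 43.2% in each library, with overlapping groups. An exact 2-sided permutation test over 2 against 2 libraries cannot give less than p = 0.333, the value for both Pfkp and Pfkm. Exons of Pfkp overlap those of Pitrm1 over 748 bases, 5.58% of its annotated exon bases, and reads there cannot be assigned without strand. Of the 50-base windows of the shorter Pfkp transcript used for levels per kilobase, 17.1% occur again in transcripts of 1 other gene. The part of this in its level was not tested. Scaled by all annotated exon bases, the Pfkp share differed by 9.07 percentage points in place of 15.8.

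Pfkfb enzymes make and break fructose 2,6-bisphosphate, the strongest activator of phosphofructokinase, and PFKFB3 is the form with the highest kinase activity. Pfkfb3 (chromosome 2, 11471433 to 11554077, minus strand) was at 111 and 77.8 CPM against 32.9 and 27.4 CPM. Both libraries labelled KO lay above both others, at 3.13-fold between the groups (log2 1.65, SE 0.22, edgeR adjusted p = 0.0175). Pfkfb2, the form known from heart and islets, went the other way in level, at 80.0 and 101 CPM against 120 and 113 CPM, and did not pass (log2 -0.37, SE 0.16, adjusted p = 0.321). Pfkfb4 was at 11.9 and 13.6 CPM against 9.94 and 10.9 CPM (log2 0.29, SE 0.27, adjusted p = 0.652). Pfkfb1, the liver form, was at 3.93 and 1.84 CPM against 3.20 and 3.24 CPM (log2 -0.16, SE 0.55, adjusted p = 0.928). In the libraries labelled heterozygous Pfkfb2 was the main form, with 69.7% and 70.0% of the RNA per kilobase, and Pfkfb3 held 18.2% and 16.2%. In those labelled KO, Pfkfb3 held 50.3% and 37.7% and Pfkfb2 37.9% and 51.1%, so the leading form differed between these replicates. The exact permutation p was 0.333 for each, the least possible. Exons of Pfkfb2 overlap Yod1 and a gene model over 19.5% of their bases.

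Fructose bisphosphatases remove the phosphate that phosphofructokinase adds. Fbp2 (chromosome 13, 62836877 to 62858422, minus strand), the muscle form, was at 46.0 and 14.3 CPM against 2.25 and 2.15 CPM. Its rise was the largest among the genes that passed, at 13.7-fold (log2 3.77, SE 0.56, edgeR adjusted p = 0.0228), although KO replicate 1 was far above KO replicate 2. The call was lost with limma-voom (adjusted p = 0.0931). In edgeR the log2 fold change was 2.67 without KO replicate 1 (adjusted p = 0.0118) and 4.38 without KO replicate 2 (adjusted p = 0.00188). Fbp1, the liver form, was at 13.9 and 5.87 CPM against 5.65 and 2.75 CPM (log2 1.23, SE 0.54, adjusted p = 0.311). The lower library labelled KO was barely above the higher labelled heterozygous. Of bisphosphatase RNA per kilobase, Fbp2 held 78.4% and 72.7% against 30.3% and 46.0% (exact permutation p = 0.333, the least possible).

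**Figure D2:**
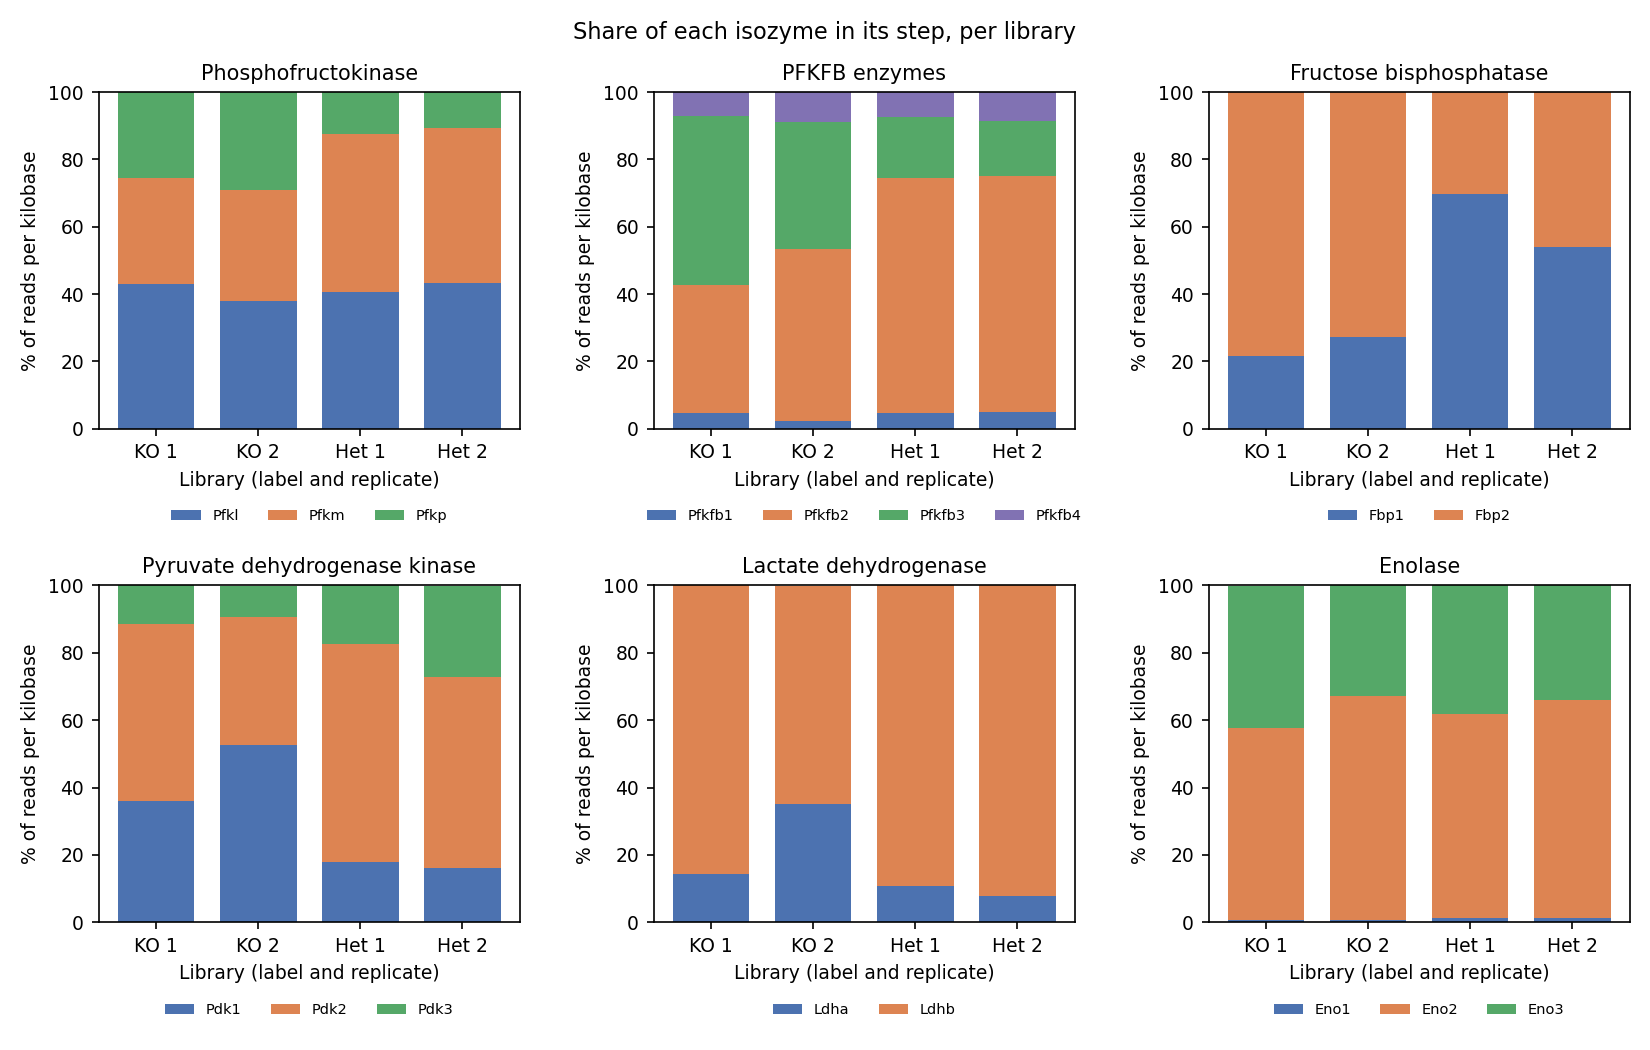
Share of each isozyme in the reads per kilobase of its step, in percent, for each library (KO 1 and KO 2 carry the KO label, Het 1 and Het 2 the heterozygous label). Pfkp, Pfkfb3, Fbp2 and Pdk1 take a larger share in both libraries labelled KO, while the enolase shares overlap between labels for Eno2 and Eno3.

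BMAL1 and CLOCK bind the E-box, CACGTG, so promoter windows of 300 bases (250 before to 50 after a start site, RefSeq, GRCm38.p6) were searched for it on both strands. Of the 40 genes 38 had a window; Pdp1 and Slc2a3 had none. The E-box stood in 8 of their 59 windows (13.6%) and in 7.15% of all 32851 windows. The shorter ACGTG, which every E-box also contains, stood in 40.7% of the windows and in 19.6% of all. Among the 5 genes that rose, Fbp2 had an E-box beginning at -42 from the start site and Pfkfb3 had 1 at -53 of a start inside the gene. Gpi1, Pfkp and Pdk1 had none in these windows. The sequences around the first E-box of each window are shown to set the genes that rose beside those that did not pass, 5′ to 3′ on the strand of the gene, with the E-box in capitals.
Fbp2: ggctatctgagtCACGTGgggtggggttca
Pfkfb3: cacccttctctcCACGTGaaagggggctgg
Pfkfb2: ggccaagcgcccCACGTGactcgccccaac
Pfkm: aattaagtatgcCACGTGaagtaagtaatt
Ldha: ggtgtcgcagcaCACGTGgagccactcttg
Pdk2: ctcgaggagagcCACGTGtcgaagcgcaag
G6pc3: acgctggcagccCACGTGctagcaacagcg
Pcx: ccCACGTGaggctttcaaga
Fbp2 and Pfkfb3 rose, while Pfkfb2, Pfkm, Ldha, Pdk2, G6pc3 and Pcx did not pass. G6pc3 and Ldha each have a further E-box closer to the start. The window of Pfkfb3 (chr2:11502091-11502340, minus strand, the 250 bases before the start) and that of Pfkp (chr13:6648772-6649021, minus strand) are given in full, as PFKFB3 makes the activator of phosphofructokinase and both genes rose, 1 with the motif and 1 without it.
Pfkfb3: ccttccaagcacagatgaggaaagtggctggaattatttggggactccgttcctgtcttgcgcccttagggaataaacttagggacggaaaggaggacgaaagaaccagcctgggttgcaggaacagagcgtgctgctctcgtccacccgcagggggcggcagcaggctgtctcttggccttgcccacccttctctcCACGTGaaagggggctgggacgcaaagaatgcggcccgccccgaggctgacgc
Pfkp: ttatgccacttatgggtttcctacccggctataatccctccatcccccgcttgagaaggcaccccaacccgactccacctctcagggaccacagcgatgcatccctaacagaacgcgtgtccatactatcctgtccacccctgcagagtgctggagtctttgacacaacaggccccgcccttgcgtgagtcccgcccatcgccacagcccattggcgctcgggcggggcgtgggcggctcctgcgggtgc
A match is a description of letters and not a measured binding site.

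Aldolase splits fructose 1,6-bisphosphate, and the member Aldoa was nearly level. It was at 277 and 276 CPM against 267 and 269 CPM (log2 0.05, SE 0.13). Aldoc, the brain form, was at 15.4 and 9.24 CPM against 8.68 and 6.27 CPM (log2 0.72, SE 0.36, edgeR adjusted p = 0.378). Between these members, Aldoa held 97.1% to 98.8% per kilobase in each library.

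In lower glycolysis 4 genes that are abundant in nearly every cell had implausibly low counts. Gapdh had 276 to 402 counts per library, Pgk1 97 to 198, Pgam1 141 to 165 and Eno1 18 to 34. Per kilobase this is a mean over the 4 libraries of 6.95 CPM for Gapdh, 2.36 for Pgk1, 2.54 for Pgam1 and 0.33 for Eno1. Their neighbours in the same linear chain were far higher, at 180 for Aldoa, 55.9 for Tpi1 and 287 for Pkm. The transcripts of these 4 genes were also those most repeated elsewhere. Of the 50-base windows of the Gapdh transcript, 82.5% occur again in annotated transcripts of 222 other genes, 213 of them pseudogenes. The share was 72.2% for Eno1, 68.0% for Pgk1 and 41.5% for Pgam1, against 34.4% for Pkm, 13.9% for Aldoa and 7.51% for Tpi1. Both deposited tables hold the same low values, and the sources used here do not say how reads with several matches were counted; its part was not tested. The levels of these 4 genes are therefore uncertain in each library. A gene such as Hk2, with no repeated window, can be low too.

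**Figure D3:**
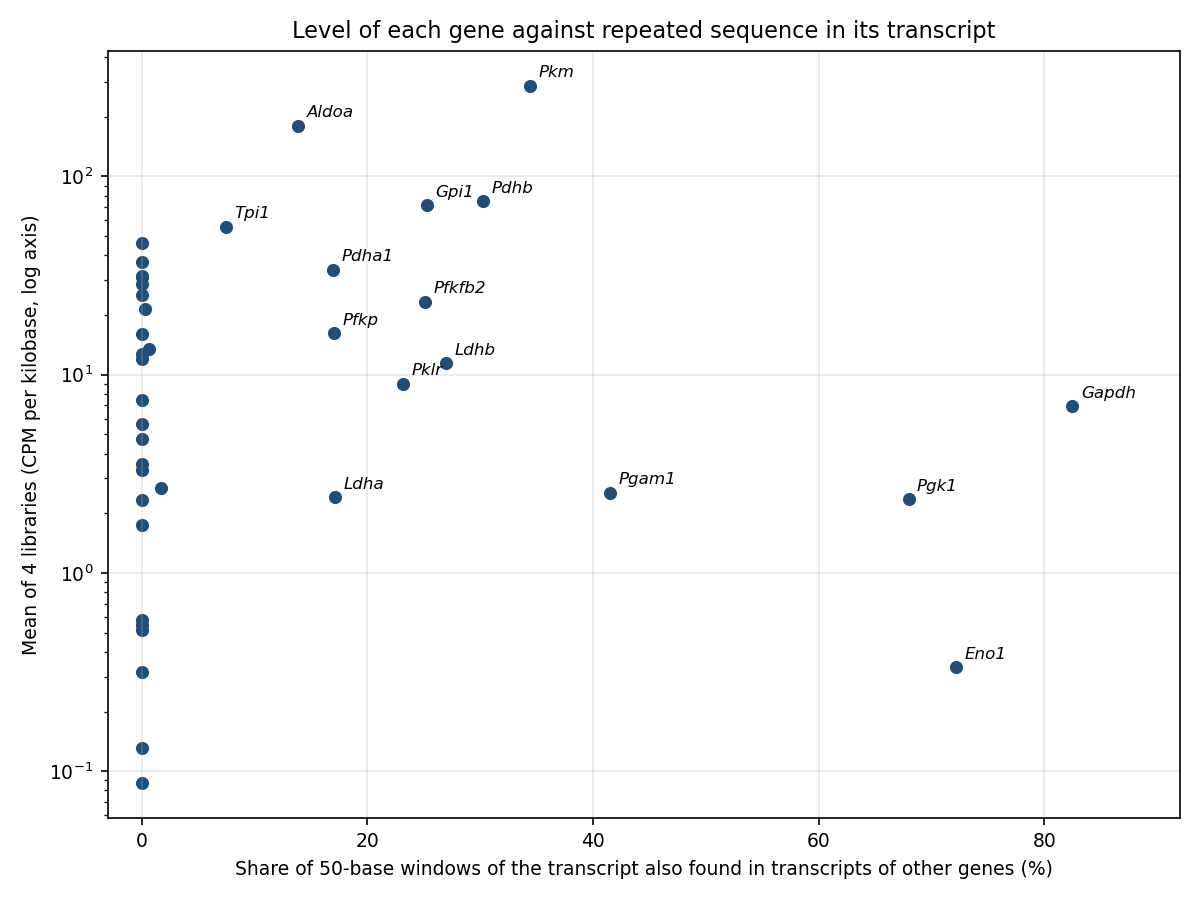
Mean level over the 4 libraries (CPM per kilobase, log axis) of each gene against the share of 50-base windows of its transcript that also occur in transcripts of other genes. Gapdh, Eno1 and Pgk1, with over 50% repeated, lie between 0.33 and 6.95, while the other 37 genes have a median of 11.9.

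None of these steps passed. For the triose isomerase Tpi1 the values were 89.9 and 74.1 against 88.4 and 107 CPM (log2 -0.25, SE 0.17). The log2 fold changes were 0.17 for Gapdh, -0.61 for Pgk1, 0.13 for Pgam1 and -0.53 for Eno1, with standard errors of 0.31 to 0.85. Pgam2, the muscle mutase, had 52 to 87 counts and overlapping groups (log2 -0.12). Among enolases, Eno2, known from neurons and endocrine cells, held 57.0% to 66.4% of the RNA per kilobase and Eno3, the muscle form, 32.8% to 42.3%, while Eno1 held 0.75% to 1.22% under the limit just given. Eno2 (log2 0.05, SE 0.16) and Eno3 (log2 0.13, SE 0.25) overlapped between labels.

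**Figure D4:**
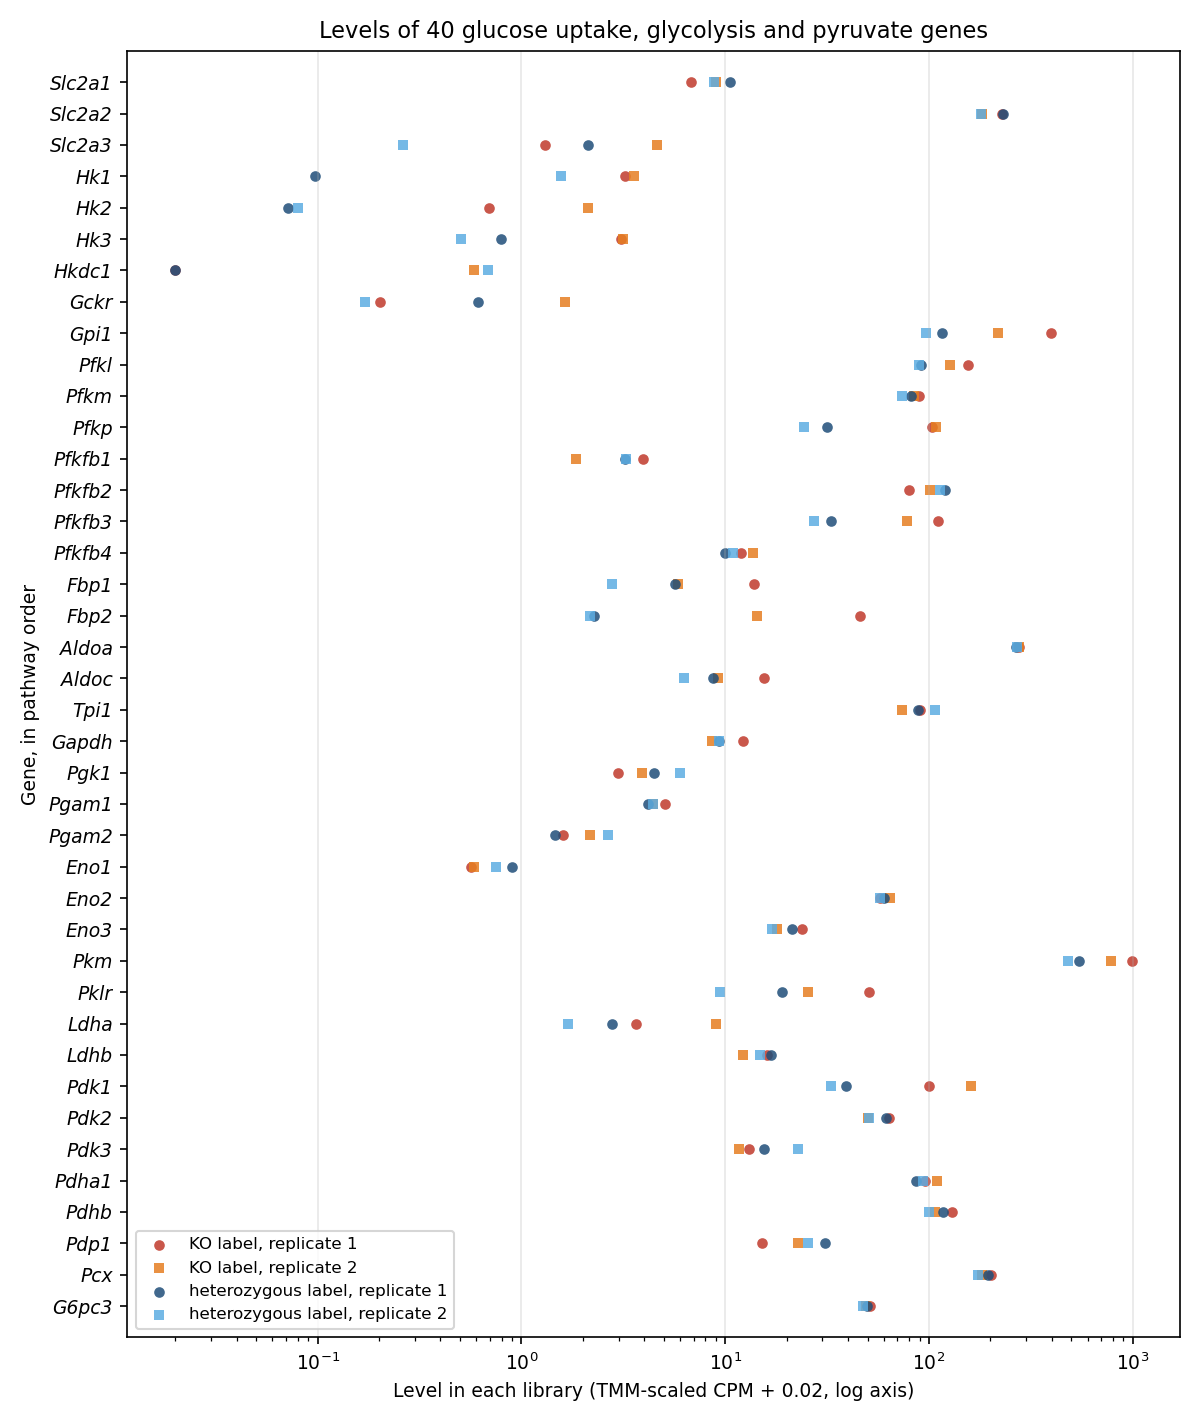
TMM-scaled CPM plus 0.02 (log axis) of each gene in each of the 4 libraries, in pathway order. Pkm is highest in every library, at 481 to 991 CPM, and the points of Gpi1, Pfkp, Pfkfb3, Fbp2 and Pdk1 split by label.

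Pyruvate kinase makes pyruvate, and Pkm was the most abundant of the 40 genes. It was at 991 and 779 CPM against 544 and 481 CPM, with no overlap, and narrowly missed the threshold (log2 0.79, SE 0.16, edgeR adjusted p = 0.0617). Gene counts do not separate its M1 and M2 transcripts. Pklr, the liver and red cell form, was at 50.9 and 25.4 CPM against 19.1 and 9.38 CPM (log2 1.42, SE 0.42, adjusted p = 0.155). Its exons overlap Hcn3 over 22.0% of their bases. Pkm held 95.9% to 98.4% of pyruvate kinase RNA per kilobase in each library.

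Lactate dehydrogenases turn pyruvate into lactate and back, and both were low. Of the 50-base windows of their transcripts, 17.1% for Ldha and 27.0% for Ldhb occur again in transcripts of other genes. The part of this in their levels was not tested. Ldha was at 3.62 and 8.99 CPM against 2.76 and 1.66 CPM, highest in KO replicate 2, and did not pass (log2 1.51, SE 0.57, edgeR adjusted p = 0.246). Ldhb was at 16.0 and 12.2 CPM against 16.7 and 14.8 CPM with overlap (log2 -0.16, SE 0.26). Per kilobase Ldhb was the main form, with 64.8% to 92.3% of the RNA, and Ldha held 14.3% and 35.2% against 10.9% and 7.67%. Slc2a3, Hk2 and Ldha had their highest values in KO replicate 2, the library with the highest summed immune and stromal markers. The part of those cells was not tested.

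At pyruvate dehydrogenase the kinase Pdk1 rose. PDKs switch the enzyme off by phosphorylating its E1α subunit. Pdk1 (chromosome 2, 71873224 to 71903858, plus strand) was at 100 and 161 CPM against 39.2 and 32.9 CPM. The groups were well apart, at 3.63-fold (log2 1.86, SE 0.25, edgeR adjusted p = 0.0175). Pdk2, the most widespread form, was at 63.5 and 50.5 CPM against 61.4 and 50.5 CPM (log2 0.02, SE 0.19, adjusted p = 0.967). Pdk3 was at 13.1 and 11.6 CPM against 15.5 and 22.7 CPM, below in both (log2 -0.63, SE 0.28, adjusted p = 0.312). Of the RNA of these 3 per kilobase, Pdk1 held 36.0% and 52.7% against 17.9% and 16.0%, Pdk2 52.5% and 38.01% against 64.8% and 56.8%, and Pdk3 11.5% and 9.32% against 17.3% and 27.1%. Each had the least possible exact permutation p of 0.333. Pdk4, from the list of other members of the complex, was scarcer but rose as well, from 1.32 and 1.15 CPM to 8.65 and 12.0 CPM (log2 3.06, SE 0.41, edgeR adjusted p = 0.0175).

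The pyruvate dehydrogenase subunits, Pdp1, Pcx and G6pc3 did not pass. The E1 subunits Pdha1 (log2 0.20, SE 0.15) and Pdhb (0.13, SE 0.16) had mean levels of 103 and 118 CPM in the libraries labelled KO and of 89.9 and 109 CPM in those labelled heterozygous. Exons of Pdha1 overlap Map3k15 over 16.1% of their bases. Pdp1, the phosphatase that reverses PDK action, was at 15.2 and 22.7 CPM against 30.96 and 25.5 CPM, below without overlap (log2 -0.58, SE 0.26, adjusted p = 0.315). Pyruvate carboxylase, Pcx, was at 201 and 183 CPM against 195 and 175 CPM (log2 0.05, SE 0.14). G6pc3, the widespread glucose-6-phosphatase, was at 51.6 and 48.9 CPM against 49.8 and 47.6 CPM (log2 0.05, SE 0.16). The groups overlapped for both Pcx and G6pc3.

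Adjoining pathways held few genes that passed in edgeR's test. Over all genes tested, 16.9% had an unadjusted p under 0.05 and 52.4% a higher level. Of 8 pentose phosphate genes 0 passed (2 at an unadjusted p under 0.05), with Rpia nearest (log2 1.55, adjusted p = 0.287). Of 6 lactate and pyruvate transport genes 0 passed (0 at an unadjusted p under 0.05), with Bsg nearest (log2 -0.21, adjusted p = 0.567). Of 10 genes of the NADH shuttles 0 passed (3 at an unadjusted p under 0.05), with Gpd1l nearest (log2 -0.58, adjusted p = 0.169). DESeq2 and limma called 0 genes of these 3 lists too. In the tricarboxylic acid cycle 0 of 17 passed by edgeR or limma-voom, 1 (Sdhd) passed by DESeq2 and limma-trend, and 3 had an unadjusted p under 0.05; 15 had a lower and 2 a higher level, and the median was -0.10. The higher pair was Sdhd (log2 0.64, adjusted p = 0.0735), a subunit of succinate dehydrogenase, and Suclg2 (0.68, adjusted p = 0.161), of which the latter was named after its value was seen. Among 6 further genes of the pyruvate dehydrogenase complex Pdk4 alone passed. From the list of regulators and remaining isozymes, Egln3 and G6pc2 were among those that passed. Egln3, a prolyl hydroxylase acting on HIF-1α, rose from 3.59 and 1.57 CPM to 22.3 and 11.3 CPM (log2 2.69, SE 0.52, adjusted p = 0.0481), and did not pass by limma-voom (adjusted p = 0.0628) or without KO replicate 1 (0.0797). G6pc2, the islet glucose-6-phosphatase, fell from 2061 and 2103 CPM to 1028 and 1118 CPM (log2 -0.96, SE 0.13, adjusted p = 0.0175).

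Library composition ran beside several of these values. Gpi1, Pfkfb3 and Fbp2 fell in the order KO replicate 1, KO replicate 2, heterozygous replicate 1, heterozygous replicate 2, as did the summed acinar markers (227, 106, 77.3 and 25.8 CPM), endothelial markers (39.8, 22.5, 15.2 and 11.7 CPM) and markers of glia and neurons (93.0, 88.5, 63.1 and 57.6 CPM). Fbp1, Pfkl, Pfkm, Aldoc, Pkm and Pklr, which did not pass, had the same order, which makes 9 of the 40 genes beside 7.87% of all genes tested. Pfkp and Pdk1 were instead highest in KO replicate 2, followed by KO replicate 1, heterozygous replicate 1 and heterozygous replicate 2. The summed stromal markers (443, 173, 72.6 and 31.5 CPM) had this order, as did the far more abundant Ppy and Gcg. The summed α-cell markers, Gcg among them, did not, at 4726, 3143, 3078 and 3710 CPM in the same sequence of libraries. Hk3 and Ldha, which did not pass, had the order of Pfkp and Pdk1 too, which makes 4 of the 40 genes beside 5.95% of all genes tested. Both orders need both libraries labelled KO to lie above both others, which the 5 genes that rose all met. That held for 18 of the 40 members and for 3700 of all genes tested. Of those 3700 genes, 1153 had the first order and 871 the second. The part of the cells behind these markers in the rises was not tested.

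A fit with 1 library left out estimates scatter from the 2 libraries of the other label alone, and the part of this in lost calls was not tested. The 5 rises kept their direction whichever library was left out, but their calls were lost without heterozygous replicate 2. Without that library 0 members passed, with adjusted p of 0.0557 for Pfkp, 0.0911 for Pdk1, 0.0970 for Fbp2, 0.0980 for Pfkfb3 and 0.189 for Gpi1, and 25 genes passed in all. Outside the 40 genes, the adjusted p without it was 0.0724 for Arntl, 0.174 for Egln3, 0.0940 for G6pc2 and 0.0990 for Pdk4. The log2 fold changes of the 5 members were then 1.73, 1.73, 3.74, 1.51 and 1.39 in that order. Without heterozygous replicate 1, 4 members passed and Gpi1 did not (adjusted p = 0.0662). Without KO replicate 1, 5 passed, and without KO replicate 2, 8 passed, which added Pfkl, Pkm and Pklr.

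**Figure D5:**
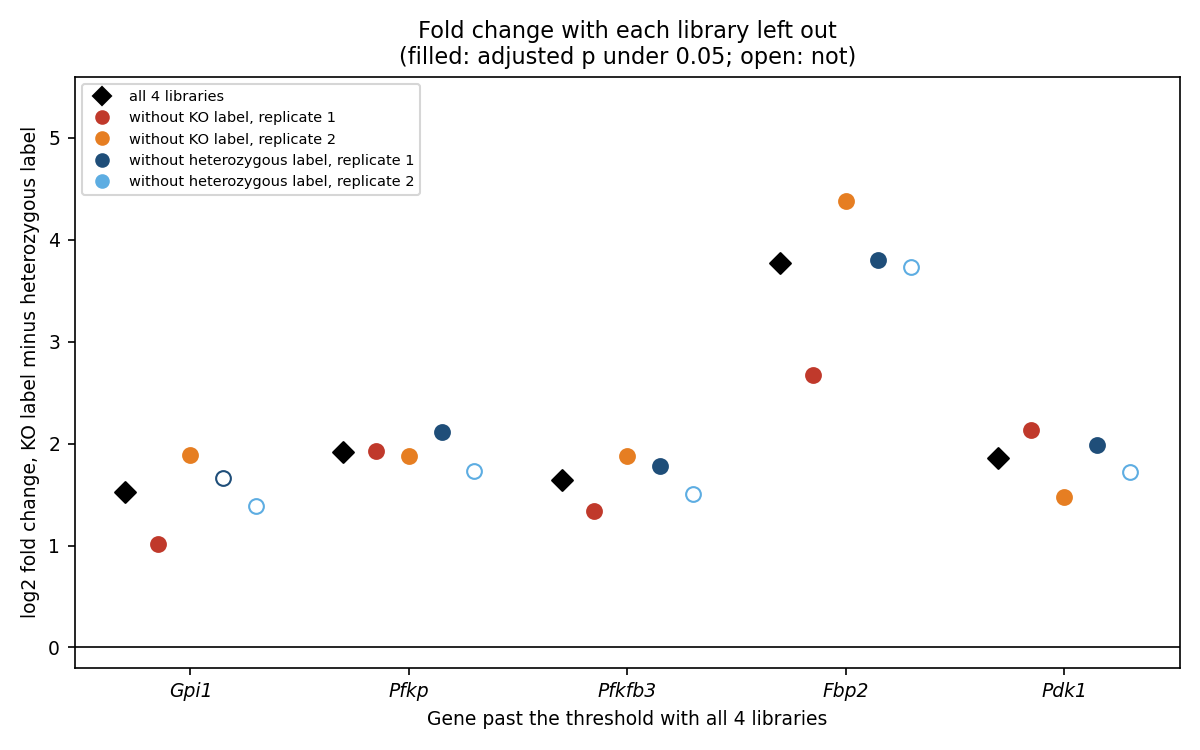
Log2 fold change of the 5 genes that passed, with all 4 libraries (diamonds) and with each library left out (circles). Filled symbols have an adjusted p under 0.05, and each gene is open without heterozygous replicate 2, at 1.39 to 3.74.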

How the data were processed

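RNA was sequenced from 4 libraries of sorted β-cells, 2 per label. Per the labels' protocols, an RNeasy Plus Micro kit was used for extraction and a SMART-Seq v4 low-input kit for library preparation. STAR, edgeR and mm10 are named, with no version or role, per the submitters' processing notes; the sources used here do not give the counter, strand setting or annotation. For each gene the authors deposited whole-number counts, used for all tests, and a scaled table, treated as signal, whose values equal counts times 1 constant per library (99.97% to 99.99% whole at a tolerance of 0.01; the test on the recovered reads called 372 genes, as did the test on the counts). Without molecular identifiers, floors and intervals cover only counting error. A count of 3 equals 0.0775 to 0.0937 CPM.

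Genes were kept by filterByExpr at a count of 10 and a total of 15, TMM factors were applied, and the test was that of edgeR 4.0.16 (R 4.3.3; glmQLFit and glmQLFTest, group as the only term), 2-sided, with Benjamini-Hochberg adjustment over 14649 genes at 0.05. The procedure was also run on 5 simulated sets of 14649 genes, with 200 genes made to differ. It found 33.8% of the genes that differed 2-fold and 72.8% of those that differed 4-fold. False calls came to 7.42%, above the nominal 5%. A 2-fold difference was thus missed more often than found, so a gene that did not pass may still differ. Replicates differed by more than sampling noise (chi-square per degree of freedom 63.9 between KO-labelled and 42.9 between heterozygous-labelled replicates). Shares within a step used the length of the longest transcript with a CCDS and the best APPRIS label in GENCODE M21 (GRCm38). Every member is named; members of a step with a gene past the threshold are given by library. From each pathway list up to 3 genes past the threshold, or the 1 with the smallest p, are named; a few results of these lists are not reported here. The members and lists were chosen with earlier results of these data known. Promoters are from RefSeq (GRCm38.p6). Alternatives were other scalings, other filters, DESeq2 1.42.0, limma-voom and limma-trend (limma 3.58.1), leave-one-out fits, a replicate block, a looser threshold of 0.1 and other length scalings; recovered reads and all annotated exon bases were added after seeing the data.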

Additional observations from a re-analysis of the deposited data

How the results depend on the processing

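With 2 libraries per label the calls rest on few degrees of freedom. The number of members called higher was 5 under all 4 other scalings, on recovered reads and by limma-voom (which lost Fbp2, adjusted p = 0.0931, and added Pkm), 6 at a mean of at least 5 CPM and by limma-trend, 7 with no filter on low counts and at a threshold of 0.1, and 10 by DESeq2, which added Hk2, Hk3, Pfkl, Pklr and Pkm. Leaving out 1 library gave 0 to 8. Called lower were 0 members under every alternative run, DESeq2 and limma included. The 372 genes called in all became 808 with no filter, 1181 by DESeq2, 728 at a threshold of 0.1, 563 and 826 without KO replicates 1 and 2, and 223 and 25 without heterozygous replicates 1 and 2; the cause was not tested. The replicate block called 7 members, adding Pklr and Pkm, and 591 genes, while same-numbered libraries deviated with a correlation of -0.02. A correlation over all genes tested cannot exclude a shared factor that touches few genes. Whether same-numbered libraries share more than a number is thus not known. The Pfkp share differed by 9.07 percentage points scaled by all annotated exon bases. Leaving out 1 library gave 13.97 to 17.7 points for Pfkp, 20.5 to 33.0 for Pfkfb3, 29.5 to 45.3 for Fbp2 and 19.1 to 35.7 for Pdk1.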
